A study of Mus musculus with 4 samples.

Results

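Cells with the highest content of 4 long noncoding RNAs, labelled here as nuclear, were examined in single-cell RNA sequencing of the neonatal mouse intestinal epithelium. The members were the 5% of cells in each library with the largest share of UMIs (unique molecular identifiers, which count distinct RNA molecules) from Kcnq1ot1, Airn, Gm20275 and Mir99ahg together. Of 29127 cells kept, 1457 were members, namely 363 and 408 of ileum replicates 1 and 2 with 412 and 274 of jejunum replicates 1 and 2. They were compared with the lowest 50% of cells by the same share, 14564 cells in all. These groups are called high and low cells.

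The 4 libraries came from wild-type mice at postnatal day 6, and no group carried an allele or a treatment. Jejunum and ileum were taken from the same 2 mice, so replicate 1 of each region is one mouse (batch 1, labelled male) and replicate 2 the other (batch 2, labelled female), and mouse, batch and labelled sex cannot be told apart. The epithelium was released with EDTA and dissociated with dispase before capture, and no cell type was sorted. P-values therefore measure the spread between 2 libraries per region.

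The sex labels went against the data in all 4 libraries. Over all kept cells, ileum and jejunum replicate 1, whose donor is labelled male, held 575 and 463 CPM of Xist (CPM, counts per 1000000 UMIs of the summed cells), against 0.710 and 0.894 CPM for replicate 2. Eif2s3y, on the Y chromosome, had 0.0115 and 0.122 CPM with replicate 1 and 88.3 and 67.1 CPM with replicate 2. Libraries of each mouse went together for these genes. Other Y-linked genes were less clear. Ddx3y was at 113 and 85.0 CPM with replicate 1 and at 235 and 191 CPM with replicate 2, and Uty was at 1.26 CPM in ileum replicate 1 and at 141 CPM in jejunum replicate 1. Depth differed by region, with a median of 12188 and 11459 UMIs per kept cell in the ileal libraries, then 5189.5 and 6143 in the jejunal ones. Called barcodes were shared by 1 cell between the jejunum libraries and by 1 between ileum and jejunum replicate 2.

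Many long noncoding RNAs stay in the nucleus after transcription and are not translated. Kcnq1ot1 is transcribed antisense within Kcnq1 and silences imprinted genes around it, and Airn does so from within Igf2r. Mir99ahg is the host transcript of a microRNA cluster. Gm20275 is a gene model to which no role is assigned here. Newly made and unspliced mRNA is also nuclear, and long genes yield much of it because their introns take up most of their length, whereas mature mRNA of ribosomal protein genes lies in the cytoplasm.

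The ranking was set by few molecules. A high cell held a median of 14 and 12 UMIs of the 4 RNAs in the ileal libraries, then 12.5 and 12 in the jejunal ones, with a minimum of 4, 4, 4 and 3. The lowest share among high cells was 0.191%, 0.184%, 0.188% and 0.133% (ileum replicates 1 and 2, then jejunum replicates 1 and 2), and the next cell below had the same share to 3 digits in each library. Median shares were 0.232%, 0.235%, 0.243% and 0.181% in high cells against 0.0474%, 0.0437%, 0.0278% and 0.0183% in low cells. The class is a range of a score, cut at a fixed percentage of cells, and is not named as a cell type.

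Low cells of the jejunum included many in which none of the 4 RNAs was seen. In all, 1251 and 1026 jejunal cells had no such UMI, against 393 and 413 ileal cells. High cells had a median of 5446 and 4678 UMIs in the ileum against 12085 and 13015 in low cells, but 4388 and 5466.5 in the jejunum against 4320 and 5070. Depth thus moved with the class in the ileum. Against all other kept cells, high cells of the jejunum also had fewer UMIs, at 4388 and 5466.5 against 5264.5 and 6175.5. Choosing the cells within quartiles of UMIs per cell made the depths of the classes alike.

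All 4 RNAs contributed to the class, though unequally. Gm20275 made 47.7% and 52.1% of their UMIs in high cells of the ileum, then 58.3% and 57.6% in the jejunum. Kcnq1ot1 made 6.39% to 11.3%. Without Gm20275 in the score, 57.9% to 61.5% of high cells were chosen again, against 72.1% to 93.1% without 1 of the other 3. Kcnq1ot1 was at 280.5 and 174 CPM in high cells of the ileum, then 222 and 126 CPM in jejunal high cells, against 57.8, 30.7, 19.3 and 12.6 CPM in low cells. Airn was at 604, 669.7, 476 and 378 CPM against 114, 90.7, 47.3 and 36.4 CPM. Gm20275 was the most abundant in CPM, at 1183, 1316, 1572 and 1139.5 against 228, 231, 164 and 117. Mir99ahg was at 412, 364, 426 and 336 CPM against 98.6, 81.9, 55.8 and 35.98 CPM. High and low cells did not overlap over the libraries for any of the 4, a pattern the choice of cells fixed. At least 3 of the 4 RNAs were seen in 81.8% and 78.9% of high cells in the ileal libraries, then in 78.6% and 63.1% in the jejunal ones.

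Each RNA was also measured in cells chosen by the other 3 alone, a choice that did not use it. Kcnq1ot1 remained higher in high than in low cells, with a log2 fold of 1.74 ± 0.37 (mean ± SD, n = 4 libraries, on summed UMIs with 5 CPM added to each level). Airn had 1.36 ± 0.48, Gm20275 1.33 ± 0.30 and Mir99ahg 1.27 ± 0.27. All 16 folds over the 4 RNAs and 4 libraries were positive, from 0.71 for Airn in ileum replicate 1 to 2.19 for Kcnq1ot1 in jejunum replicate 1. They came from the same cells and libraries as the choice and are given as a description.

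**Figure D1:**
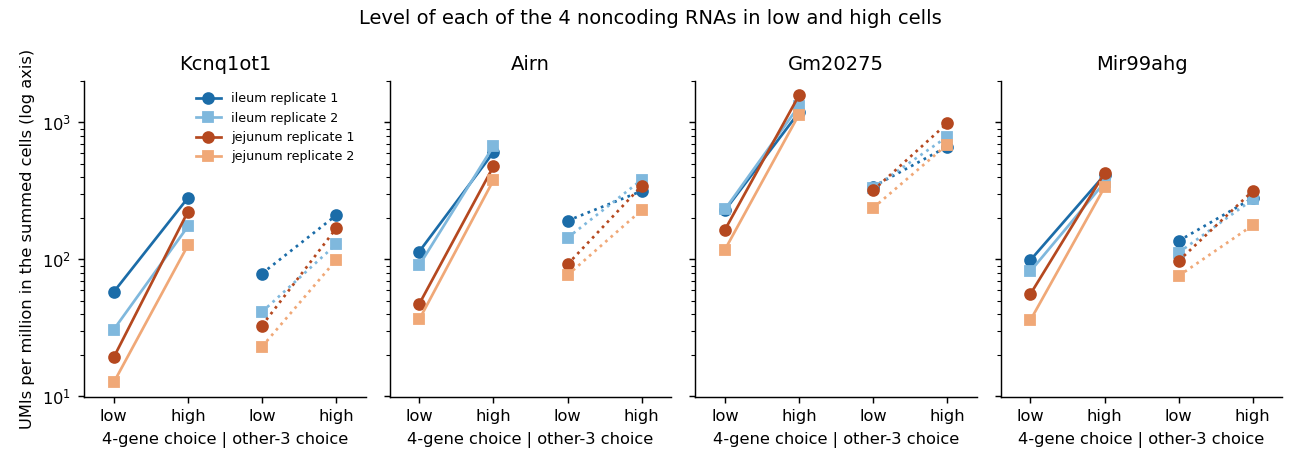
Level of each of the 4 noncoding RNAs in CPM (log axis) in low and high cells, with 1 line per library (blue, ileum; orange, jejunum; circles, replicate 1; squares, replicate 2). Solid lines show cells chosen by all 4 RNAs, in which the difference is set by the choice, and dotted lines show cells chosen by the other 3, in which every library still rises, by log2 folds of 0.71 to 2.19.

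High cells were more often neighbours of high cells when the 4 RNAs were left out of the profile. Among the 30 nearest neighbours of a high cell, in 30 principal components of counts thinned to 2000 UMIs per cell, 17.2% and 26.1% were high cells in the ileal libraries, then 32.9% and 26.4% in the jejunal ones. High cells made up 5.0% of all kept cells, and 1.56%, 1.46%, 0.991% and 1.62% of the neighbours of low cells. Yet 9.92% and 10.3% of high cells in the ileal libraries, then 11.2% and 17.5% in the jejunal ones had no high neighbour, and 3.03%, 15.9%, 33.3% and 24.8% had mostly high neighbours. The high cells thus did not fall into 1 compact group in any of the 4 libraries.

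Ribosomal protein transcripts took a smaller share of UMIs in high than in low cells of every library. Their median share was 2.71% and 1.36% in high cells of the ileum against 5.08% and 4.54%, and 1.60% and 2.29% in the jejunum against 2.91% and 2.76%. The difference was -1.83 ± 1.19 percentage points (mean ± SD, n = 4 libraries), and it was smallest in jejunum replicate 2. Of 81 ribosomal protein genes used, 59 were lower in all 4 libraries and 0 higher, where 18.7% and 27.1% of all 15986 genes used were so. Their median log2 fold was -0.71, with -0.81 and -1.13 for the ileal libraries, then -0.66 and -0.11 for the jejunal ones, beside 0.04 over all genes. Single members are uncertain, since these genes have near-identical pseudogenes.

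The mitochondrial share moved with the class in 3 of 4 libraries. It had a median of 5.39% and 8.59% in high cells of the ileum against 3.54% and 3.39% in low cells, and of 8.39% against 6.03% in jejunum replicate 1. In jejunum replicate 2 it went the other way, at 8.88% against 11.6%. The mean difference was 1.67 ± 3.28 percentage points, smaller than its spread. It was 0.498 without ileum replicate 2 and 3.14 without jejunum replicate 2, and 0.783 ± 2.07 with cells chosen within quartiles of UMIs per cell. Of the 13 mitochondrial mRNAs, 3 were higher in all 4 libraries, a smaller share than the 27.1% of all genes used. They were mt-Nd6, mt-Co2 and mt-Co3, with log2 folds in jejunum replicate 2 of 0.15, 0.01 and 0.01. The median log2 fold of the 13 was 0.69, 1.20, 0.44 and -0.08 in ileum replicates 1 and 2 and jejunum replicates 1 and 2. With cells limited to a mitochondrial share under 10%, high cells had the larger share in 4 of 4 libraries, by 1.95 ± 1.14 points. The part of cell damage in these values was not tested.

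Transcripts of long genes were more abundant in high cells. Genes with a genomic span over 100 kb (from gene start to end in the GENCODE M21 annotation, the 4 rule genes left out) took 19.1% and 17.5% of UMIs in high cells of the ileum against 12.7% and 11.2%, and 20.0% and 14.9% in the jejunum against 10.9% and 9.45%. This was higher in 4 of 4 libraries, by 6.83 ± 1.60 points. Across 5 rank groups from the lowest 50% to the top 5%, the share rose at every step in every library. Genes of up to 10 kb, in contrast, took 27.1%, 27.8%, 27.5% and 32.5% of UMIs in high cells and 33.7%, 34.7%, 38.1% and 43.3% in low cells.

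**Figure D2:**
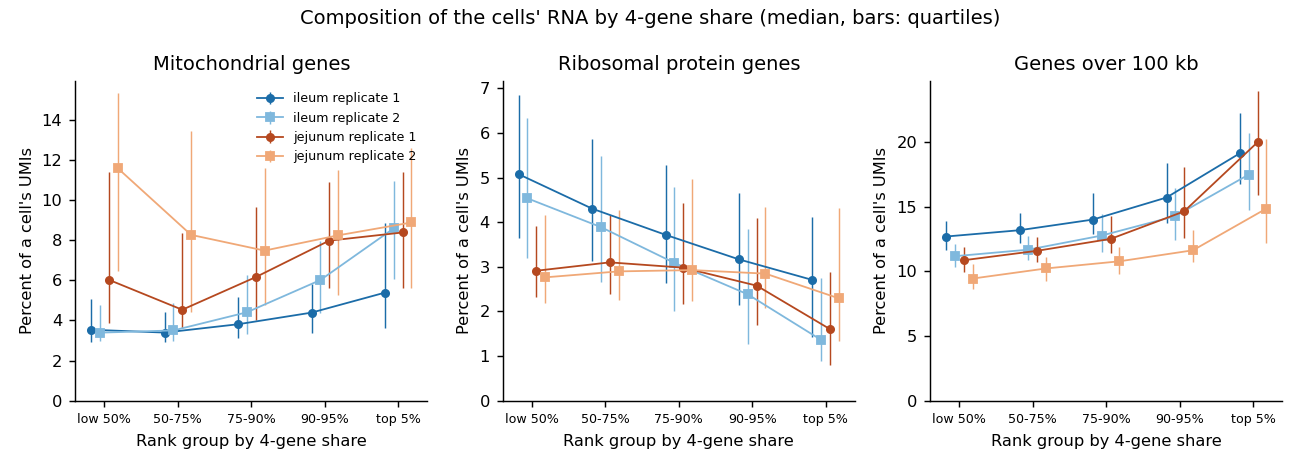
Median percent of a cell's UMIs from mitochondrial genes, ribosomal protein genes and genes over 100 kb (vertical axes) in 5 groups of cells ranked by the 4-gene share (horizontal axis), with bars from the first to the last quartile and 1 line per library. The share of genes over 100 kb rises at every step in all 4 libraries, the ribosomal protein share is lower in the top 5% than in the lowest 50% of each, and the mitochondrial share of jejunum replicate 2 goes from 11.6% to 8.88% while the other 3 end higher than they begin.

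By gene, the fold followed the span in each library. The median log2 fold of high over low cells was -0.20 for the 3614 genes of up to 10 kb, -0.02 for the 4777 genes of 10 to 30 kb, 0.14 for the 4861 of 30 to 100 kb and 0.25 for the 2710 over 100 kb. Long and short genes differed by 0.45 ± 0.07 (mean ± SD over 4 libraries). Among genes with a mean of at least 100 CPM the medians were -0.62, -0.20, 0.24 and 0.73 (536, 637, 730 and 431 genes), a difference of 1.35 ± 0.30. When the cells were chosen within quartiles of UMIs per cell, so that high and low cells had medians of 8731 and 8745 UMIs, the difference over all genes was 0.28 ± 0.09.

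**Figure D3:**
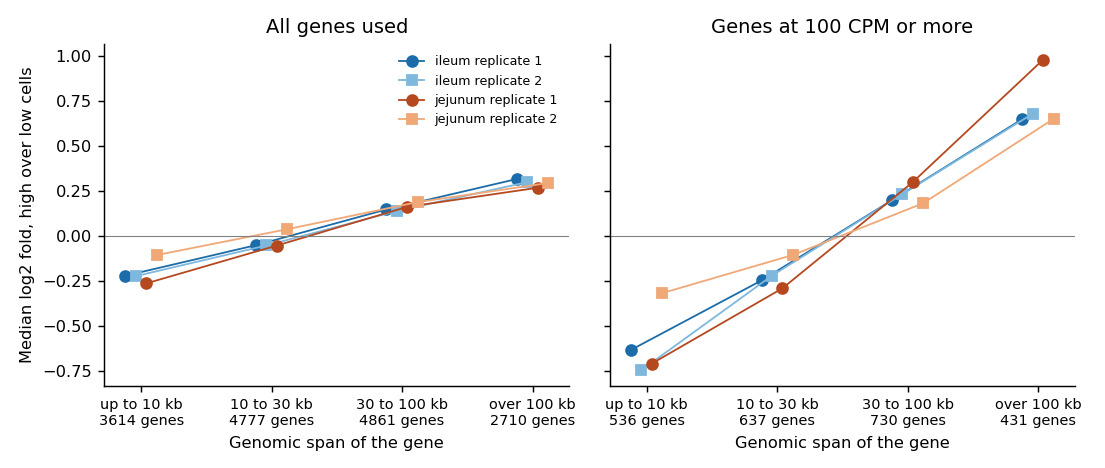
Median log2 fold of high over low cells (vertical axis) for genes grouped by genomic span (horizontal axis), for all genes used and for genes with a mean of at least 100 CPM, with 1 line per library. In each panel all 4 libraries rise from genes of up to 10 kb to genes over 100 kb, from -0.20 to 0.25 and from -0.62 to 0.73 for the fold averaged over libraries.

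Outside the rule, 34 of 15986 genes (0.213%) were past 2-fold with the same sign in all 4 libraries, 33 higher (0.206%) and 1 lower (0.00626%). The count describes the contrast the rule used and carries no test. Of the 33 higher genes, 30 (90.9%) had a span over 100 kb, where 2710 of all 15986 genes used (17.0%) did. The median span of the 33 was 446 kb, beside 27.6 kb over all genes used. They were also more abundant, with a median level of 97.5 CPM beside 14.3 CPM over all genes used. Without Gm20275 in the score, only 2 of the 33 were again higher past 2-fold in all 4 libraries. Without Kcnq1ot1, Airn or Mir99ahg in turn, 26, 20 and 17 of them were. The count of 34 rested on the choice of cells. It was 277 with the top 2% of cells, 0 with the top 10%, and 1, a lower gene, within quartiles of UMIs per cell, and it was 70, 74, 36 and 74 without ileum replicates 1 and 2 and jejunum replicates 1 and 2 in turn.

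The highest of them was Immp2l, which encodes a subunit of the inner mitochondrial membrane peptidase and spans 931 kb. It was at 792 and 696 CPM in high cells of the ileum, then 875 and 482 CPM in jejunal high cells, against 321, 275, 241 and 148 CPM in low cells, a log2 fold of 1.53 ± 0.27. The groups did not overlap. Next were Setbp1, with 1.47 ± 0.24, Fam172a, with 1.44 ± 0.34, Stard13, with 1.41 ± 0.26, and Esrrg, which encodes an orphan nuclear receptor, with 1.41 ± 0.24. Lrp4, a receptor of the low-density lipoprotein receptor family, had 1.40 ± 0.25 and spans only 56.3 kb. Magi1, a scaffold of cell junctions, had 1.40 ± 0.25, and Pard3b, a relative of the polarity gene Pard3, had 1.39 ± 0.29.

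Further genes named by the same rule were Maml3, Lrmda, Tox, Zfp407, Ccser1 and Exoc6b, with log2 folds of 1.39, 1.37, 1.36, 1.34, 1.34 and 1.32 and spans of 305 to 1203 kb. The gene models 2610035D17Rik and Gm48286 had 1.40 ± 0.28 and 1.09 ± 0.06. None of the genes named above is a marker in the cell type lists.

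A single gene, Leap2, was lower past 2-fold in every library. With cells chosen within quartiles of UMIs per cell it was not counted, and the 1 lower gene there was another. It also dropped out with the top 10% of cells, after thinning, and with the score without Airn, Gm20275 or Mir99ahg. It stayed with the top 2% of cells, against all other cells and at a mitochondrial share under 10%. Leap2, which encodes a secreted peptide of liver and small intestine that blocks the ghrelin receptor, was at 55.8 and 93.5 CPM in high cells of the ileum, then 252 and 399.9 CPM in jejunal high cells. In low cells it was at 128, 322, 780 and 862 CPM, a log2 fold of -1.39 ± 0.32. Its gene spans 0.990 kb. Levels differed more by region than by class, so high cells of the jejunum overlapped low cells of the ileum while each library fell.

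Across the 20 sums of 5 rank groups in 4 libraries, the genes whose level followed the 4-gene share most closely were again long. Pde4d, a cyclic AMP phosphodiesterase spanning 1504 kb, had a Pearson r of 0.996 after each library was centred. Patj, a scaffold of the apical Crumbs complex, had 0.994, Fhit 0.993, Nckap5 0.992 and Epb41l3, a membrane skeleton protein gene, 0.992. They were the 5 highest of 7101 genes ranked. The 20 points share their cells with the score and rise together by rank group, so these values are descriptive. Pde4d was at 2543, 2300.3, 2115 and 1338 CPM in high cells and 1214, 928, 782 and 587 CPM in low cells, which did not overlap.

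Other noncoding RNAs held in the nucleus were mostly higher in high cells. Of 12 used from a list of 17, 8 were higher in all 4 libraries and 0 lower, where 27.1% and 18.7% of all genes used were so. Their median log2 fold was 0.65. Neat1, the scaffold of paraspeckles, was at 256, 286, 260.1 and 265 CPM in high cells and 149, 108, 99.6 and 129.7 CPM in low cells (ileum replicates 1 and 2, then jejunum replicates 1 and 2), a log2 fold of 1.12 ± 0.29 with no overlap. Firre, which anchors chromatin in the nucleus, had 1.05 ± 0.26, Dleu2 1.01 ± 0.39, and Ftx, a noncoding gene near Xist, 0.96 ± 0.37.

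Malat1, the abundant RNA of nuclear speckles, differed between libraries. It was at 3550 and 2281 CPM in high cells of the ileum, then at 2878 and 1654 CPM in jejunal high cells, against 1395, 1045, 1207 and 1538 CPM in low cells. The log2 fold was thus over 1 in 3 libraries and 0.10 in jejunum replicate 2. Xist, the RNA that coats the inactive X chromosome, was at 1111 against 534 CPM in ileum replicate 1 and 1088 against 409 CPM in jejunum replicate 1, with log2 folds of 1.05 and 1.40. In the replicate 2 libraries it was at 3.34 CPM or less in both classes.

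Meg3, an imprinted noncoding RNA, differed in sign between libraries. Its level in high against low cells was 202 against 174 CPM and 129 against 40.8 CPM in ileum replicates 1 and 2, whereas both classes of jejunal cells were at 2.62 CPM or less. Jpx, Snhg14, Pvt1, Tsix and Peg13 lay between log2 folds of -0.01 and 0.53 at under 21 CPM. The label of cells rich in nuclear noncoding RNA held beyond the 4 RNAs for Neat1, Firre, Dleu2 and Ftx in 4 of 4 libraries, and for Malat1 with a fold near 1 in jejunum replicate 2.

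Noncoding RNAs that host small nucleolar RNAs did not follow. These short spliced transcripts, such as Gas5, are largely exported and degraded during translation. Of 14 used, 1 was higher in all 4 libraries and 7 were lower, where 27.1% and 18.7% of all genes used were so. Their median log2 fold was -0.29. Snhg12 had -0.69 ± 0.18, Zfas1 -0.64 ± 0.16 and Snhg8 -0.61 ± 0.25. Gas5 fell in 3 libraries and was at 111 against 93.6 CPM in jejunum replicate 2. Noncoding RNAs as a whole were therefore not raised alike.

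Messenger RNAs known to be kept back in the nucleus were mostly higher. Of 8 used, 6 were higher in all 4 libraries and 0 lower, where 27.1% and 18.7% of all genes used were so. Their median log2 fold was 0.46. Ogt, whose enzyme attaches N-acetylglucosamine to proteins and whose transcripts retain an intron, was at 77.8, 59.4, 106 and 70.2 CPM against 45.8, 38.0, 42.5 and 37.0 CPM, with no overlap between classes (0.84 ± 0.28). Mlxipl, a glucose-responsive transcription factor gene, had 0.53 ± 0.23, and the splicing kinase genes Clk4, Clk2 and Clk1 had 0.50 ± 0.12, 0.49 ± 0.23 and 0.42 ± 0.20. Mdm2, the inhibitor of p53, had 0.42 ± 0.12. Slc7a2 and Nlrp6 were of mixed sign over libraries, the former at 3.34 CPM or less.

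Around the imprinted RNAs, the host genes were higher and most neighbours were not. Kcnq1, a potassium channel gene that overlaps Kcnq1ot1, was at 52.4, 50.7, 85.0 and 140.3 CPM in high cells against 24.7, 23.6, 32.9 and 33.2 CPM in low cells, a log2 fold of 1.27 ± 0.46. Igf2r, the receptor gene that overlaps Airn, was at 504, 529.7, 344 and 229 CPM against 377, 336, 199 and 201 CPM (0.51 ± 0.26). The sources used here do not state whether the counting used strand, so reads of these genes and of their antisense partners cannot be told apart.

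Cdkn1c, a cell cycle inhibitor that Kcnq1ot1 silences on the paternal chromosome, was at 548, 377, 407 and 316 CPM in high cells and 745, 705, 711 and 614 CPM in low cells, a log2 fold of -0.77 ± 0.23 without overlap. Slc22a18 and Cd81, of the same domain, had -0.45 ± 0.16 and -0.54 ± 0.27. Of 6 genes used there, 1 was higher and 4 lower in all 4 libraries, where 27.1% and 18.7% of all genes used were so. Cdkn1c, Slc22a18 and Cd81 span 2.71, 25.6 and 15.2 kb, and Kcnq1 spans 321 kb. In the Igf2r domain, Slc22a3 had -0.54 ± 0.26. Single-cell counts of summed alleles hold no information on which parental copy was read.

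Enterocyte genes remained high in both classes. The 20 markers summed to 20825 and 28143 CPM in high cells of the ileum, then 40603 and 46873 CPM in jejunal high cells, against 24417, 29988, 64730 and 62856 CPM in low cells. Of the 20, 4 were higher in all 4 libraries, a smaller share than the 27.1% of all genes used, and 8 were lower, where 18.7% of all genes were. The median log2 fold of the list was -0.26. The 4 higher ones were Cubn (0.85 ± 0.36), the cubilin receptor of protein uptake, Apob (0.57 ± 0.17), the structural protein of chylomicrons, Krt20 (0.49 ± 0.20) and Mttp (0.12 ± 0.06), which loads lipid onto Apob. Krt20 had -0.06 when every cell was thinned to 2000 UMIs.

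Several carriers of fatty acids, lipoproteins and retinol were lower in all 4 libraries. Fabp1 was at 53.3, 438, 3394 and 4067 CPM in high cells and 104, 1131, 6242 and 5557 CPM in low cells, a log2 fold of -0.90 ± 0.37. Fabp2 had -0.90 ± 0.30, Apoc3 -0.99 ± 0.26, Apoa1 -0.63 ± 0.28 and Rbp2, the retinol carrier, -0.65 ± 0.17. Apoa4, a lipoprotein gene of the same list, was of mixed sign (-0.33 ± 0.35).

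Immediate-early genes, which respond within minutes to dissociation and other stimuli, were lower in high cells. Of 11 genes of this and the heat shock response, 8 were lower in all 4 libraries and 0 higher. Of all genes used, 18.7% were lower and 27.1% higher in all 4. The median log2 fold of the 11 was -0.65. Ier2 was at 148, 131, 112 and 155 CPM against 269.6, 264.5, 211 and 237 CPM. Fos had -0.69 ± 0.15, Junb -0.72 ± 0.10 and Egr1 -0.73 ± 0.24. These genes span 1.52 to 7.36 kb, Atf3 excepted at 47.7 kb with -0.62 ± 0.22. Fosb, Hspa1a and Hspa1b were of mixed sign.

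**Figure D4:**
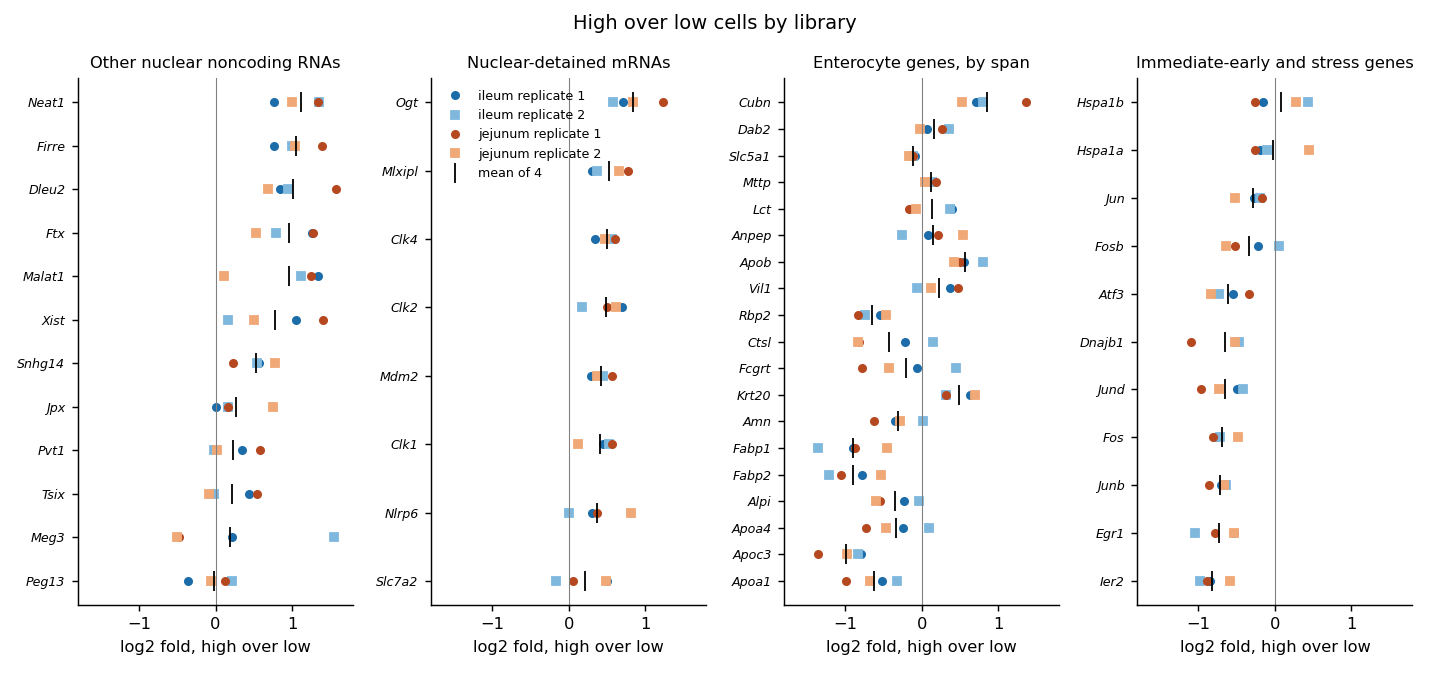
Log2 fold of high over low cells (horizontal axes) for genes of 4 lists, with 1 point per library and a bar at the mean of 4, enterocyte genes ordered by genomic span from short (bottom) to long (top). Neat1, Firre, Dleu2 and Ftx lie right of 0 in every library, Malat1 at 0.10 in jejunum replicate 2, and Fos, Junb, Egr1 and Ier2 left of 0 in every library.

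Markers of crypt cells had mixed values. The 12 stem and progenitor markers summed to 450.3 and 330.3 CPM in high cells of the ileum, then 609 and 1177 CPM in jejunal high cells, against 438, 373, 602 and 664 CPM in low cells. Lgr5, the receptor that marks crypt base stem cells, was at 29.1, 13.4, 43.7 and 81.3 CPM against 10.01, 8.08, 12.7 and 10.7 CPM, with no overlap and a log2 fold of 1.40 ± 0.82. Slc12a2 had 0.92 ± 0.55, Smoc2 0.80 ± 0.68 and Olfm4 0.45 ± 0.54, with the largest folds of all 4 in jejunum replicate 2. Stmn1, Hmgb2 and Pcna, genes of dividing cells, were lower in all 4 libraries (-0.58, -0.39 and -0.37). Top2a, Mcm6 and Mki67, also genes of dividing cells, had 0.28, 0.03 and -0.13. Each of these changed sign under some other choices of cells or libraries. Of the 12, 4 were higher and 3 lower in all 4 libraries, shares near the 27.1% and 18.7% of all genes used. Olfm4 had -0.40 when cells were chosen within quartiles of UMIs per cell.

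Markers of other cells were few. Those of mesenchyme summed to 2.73 to 5.41 CPM in high cells of the 4 libraries and those of erythroid cells to 0 to 2.30 CPM, with Hba-a1 and Alas2 at 0. The immune list summed to 104 to 163 CPM, of which Csf1r made 95.8 to 149.8 CPM, while Ptprc was at 5.57 CPM or less and Lyz2 and H2-Aa were at 0. Goblet markers summed to 263 and 296 CPM in high cells of the ileum against 203 and 156 CPM in low cells, but to 96.8 and 99.1 CPM in the jejunum against 149 and 143 CPM. Enteroendocrine markers summed to 76.8 to 133 CPM, tuft markers to 53.9 to 86.3 CPM, of which Pou2f3 made most, with Trpm5 and Il25 at 0. Paneth markers summed to 25.1 to 52.7 CPM, endothelial to 22.5 to 28.96 CPM and neuronal or glial to 12.3 to 36.8 CPM.

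A list of 12 genes held leaders of clusters with few other markers and genes of the rRNA locus. It was chosen with earlier results of these data known, so its values are a description. Gm42418, Gm26917 and AY036118 of this list were not among the genes counted. Of 9 used, 5 were higher in all 4 libraries and 1 lower, where 27.1% and 18.7% of all genes used were so. Lars2, the mitochondrial leucyl-tRNA synthetase gene, was at 685, 106, 546 and 139.8 CPM against 259, 46.9, 233 and 99.1 CPM (1.04 ± 0.40). Camk1d had 1.01 ± 0.17 and Gphn 1.00 ± 0.31. Levels of Lars2, Gphn, Cdk8 and Cmss1 were several times higher in the replicate 1 than in the replicate 2 libraries in both classes, so they differed by mouse and batch.

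The share of the 4 RNAs over all kept cells was compared between the regions, since the rule ranked cells within a library and did not use its level. Its mean over cells was 0.0848% and 0.0784% in the ileal libraries, then 0.0684% and 0.0496% in the jejunal ones, or 0.0816 ± 0.0046% against 0.0590 ± 0.0133% (mean ± SD, n = 2). The ileum was higher by 0.0226 percentage points, with no overlap (two-sided exact permutation p = 0.333, the smallest that 2 against 2 libraries allow). Without jejunum replicate 2 the difference was 0.0132 points. On summed UMIs, Kcnq1ot1 was at 94.4 and 48.4 CPM in the ileal libraries, then 50.99 and 34.5 CPM in the jejunal ones, so the regions overlapped. Airn was at 201 and 164 CPM against 117 and 96.6 CPM and did not overlap. Gm20275, at 379 and 377 CPM against 406 and 303 CPM, overlapped and was higher in the jejunum of replicate 1. Mir99ahg was at 152 and 126.9 CPM against 126.6 and 91.2 CPM.

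Region was then tested within the high cells. Of 11016 genes, 418 (3.79%) differed between ileum and jejunum by edgeR's quasi-likelihood test at an adjusted p under 0.05, 219 higher in ileal (1.99%) and 199 in jejunal cells (1.81%). With the animal as a block the same test called 1172 genes, which held all 418, and without jejunum replicate 1 it called 770. In low cells, 1564 of 18044 genes (8.67%) were called, 842 higher in ileal cells (4.67%) and 722 in jejunal ones (4%), but 461 without jejunum replicate 1 and 17 without jejunum replicate 2, and 933 with as many low cells as high cells, so the 2 counts are not comparable as they stand.

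High cells kept the regional genes of their segment. Scd2, a fatty acid desaturase gene, had 709 and 288 UMIs in high cells of ileum replicates 1 and 2 and 1 and 0 in those of the jejunum, a ratio of CPM of 871 (exact 95% interval 156 to 34429, counting error only). Meg3 had 485 and 279 UMIs against 1 and 0, a ratio of 667 (119 to 26391). Fabp6, the ileal bile acid carrier, had 336 and 313 UMIs against 2 and 1, a ratio of 189 (64.4 to 919). In each of these the regions did not overlap. Afp (log2 fold change 5.92 ± 0.48, fitted value ± SE) and Il18r1 (63 and 44 UMIs against 1 and 1, a ratio of 46.7, 12.6 to 391) followed. For the 5, in this order, edgeR's quasi-likelihood test gave an adjusted p of 0.000129, 5.56e-05, 3.41e-05, 0.000184 and 0.000826. Their log2 fold changes were 9.39, 9.02, 7.42, 5.92 and 5.34 in high cells. In low cells they were 8.57, 5.38, 10.2, 4.54 and 4.63, so the size differed between the classes, most for Meg3 and Fabp6.

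On the jejunal side, Mfsd2a, a transporter of lysophosphatidylcholine, was at 94.6 and 351 CPM against 1.25 and 0.921 CPM in the ileum (log2 fold change -7.63 ± 0.75). Fam13a was at 867 and 847 CPM against 9.99 and 21.6 CPM (-5.80 ± 0.43), with close levels in the 2 jejunal libraries. Onecut2, a transcription factor gene, had 87 and 344 UMIs against 1 and 2, a ratio of 164 (55.9 to 801). Cym, the milk-clotting protease chymosin, had 38 and 232 UMIs against 1 and 0, a ratio of 309 (55.0 to 12255), and Cyp2d26 had -6.25 ± 0.78. In the order Cym, Mfsd2a, Onecut2, Cyp2d26 and Fam13a, edgeR's quasi-likelihood test gave an adjusted p of 0.00586, 0.00047, 0.00176, 0.00185 and 0.000129. In low cells the same test gave these 5 genes log2 fold changes of -7.28, -8.79, -5.59, -5.79 and -5.75.

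By list, the 4 rule genes did not pass the region test in high cells (0 of 4), with log2 fold changes of 0.32 for Kcnq1ot1, 0.53 for Airn, -0.16 for Gm20275 and -0.02 for Mir99ahg. Their levels there were set by the limit of each library. Of 11 other nuclear noncoding RNAs tested, 2 passed, Meg3 and Rian, a transcript of the same imprinted domain (5.21 ± 0.86), both higher in the ileum. In all, 5 of 20 enterocyte markers were higher in the jejunum and 0 in the ileum (Fabp1, Fabp2, Rbp2, Mttp and Krt20), and 3 of 11 crypt markers (Olfm4, Smoc2 and Slc12a2). With the animal as a block, 10 enterocyte and 7 crypt markers passed, among them Dab2, an adaptor of endocytosis, as higher in the ileum (1.10 ± 0.33 in the fit without the block). Of 7 mRNAs known to be kept back in the nucleus, 2 passed in the main fit. These were Nlrp6 and Mlxipl, higher in the jejunum (-1.74 ± 0.26 and -1.26 ± 0.30). Of 5 goblet markers tested, 2 passed, Fcgbp and Muc2, higher in the ileum (2.46 ± 0.30 and 2.22 ± 0.43). The goblet markers Agr2, Tff3 and Spink4 did not pass (1.01, 0.54 and -0.11). For ribosomal protein genes, mitochondrial mRNAs and immediate-early genes, 0 of 80, 0 of 13 and 0 of 11 passed. Over all genes, 3.79% passed in the main fit, and 1172 of 11016 with the animal as a block. At 3.79%, 0 of 13 or 0 of 11 is not read as a result about those lists.

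Whether the difference between high and low cells itself differed by region was tested as an interaction, in a fit of 8 sums that took each library as a block. Of 16002 genes, 68 (0.425%) passed edgeR's quasi-likelihood test at an adjusted p under 0.05, 44 with a more positive difference in the ileum (0.275%) and 24 in the jejunum (0.150%). This count was fragile, at 0 without the library block (725 genes at an unadjusted p under 0.05), 54 with DESeq2 (16 shared), 12 with as many low as high cells and 19 without ileum replicate 2. Kcnq1ot1 and Mir99ahg were among the 68, but the rule set their difference, so they are not read. The classes also differed by region. High cells had fewer UMIs per cell than low cells in the ileum, but not in the jejunum. The 4 RNAs together had log2 folds of 2.30 and 2.52 in the ileal libraries, then 3.21 and 3.26 in the jejunal ones. No interaction fit used cells matched for depth. Region, depth and the size of this contrast therefore cannot be told apart.

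Lypd8, a secreted protein gene that keeps flagellated bacteria from the colonic epithelium, fell in ileal high cells and rose in jejunal ones. It was at 452 and 315 CPM in high cells of the ileum against 668 and 583 CPM in low cells, and at 513 and 615 CPM in the jejunum against 377 and 272 CPM. The interaction was -1.52 ± 0.23 on the log2 scale (adjusted p = 0.00019 by edgeR's quasi-likelihood test). Btnl6, of the butyrophilin-like genes that sustain gut intraepithelial T cells, went the opposite way (1.58 ± 0.25), at 44.9 and 40.1 CPM against 21.1 and 19.8 CPM in the ileum and at 39.1 and 30.6 CPM against 51.8 and 47.6 CPM in the jejunum. Cd36, a fatty acid transporter gene, was at 83.7 and 80.8 CPM in jejunal high cells against 163 and 162 CPM in low cells, and at 5.07 CPM or less in the ileum (1.96 ± 0.42). For Lypd8, Btnl6 and Cd36 both libraries of a region moved alike, though Cd36 had only 11 UMIs in the high cells of each ileal library. By edgeR's quasi-likelihood test, Lypd8 lost its call without ileum replicate 2 (adjusted p = 0.0947), Cd36 without ileum replicate 1 (0.155) or 2 (0.87), and Btnl6 at a mitochondrial share under 10% (0.97 on the log2 scale, adjusted p = 0.0919).

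**Figure D5:**
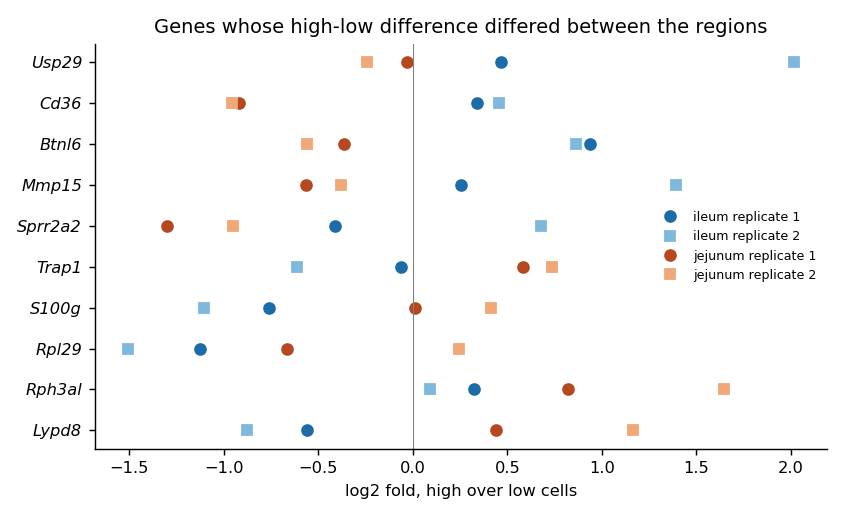
Log2 fold of high over low cells (horizontal axis) in each library for the 10 genes named from the interaction test (vertical axis). Ileal points (blue) lie right of jejunal points (orange) for the upper 5 genes and left for the lower 5, and for Usp29 the point of ileum replicate 2 at 2.02 rests mostly on 1 cell, which held 76.6% of the UMIs.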

How the data were processed

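Single-cell 3′ RNA libraries of jejunal and ileal epithelium (PIPseq) were analysed from the deposited UMI counts per gene and called cell. The authors made these counts with PIPseeker at sensitivity level 3, and their processing notes name GRCm39. The version of the tool and the use of strand in counting are not given in the sources used here. Libraries held 8962, 9700, 10001 and 7539 called cells and 131400239, 125067265, 64391480 and 57951874 UMIs (ileum replicates 1 and 2, then jejunum replicates 1 and 2).

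Cells with 1000 to 6000 genes, at least 2000 UMIs and a mitochondrial share under 20% were kept. Doublets were not removed, but the 6% of cells with the most UMIs were left out as an alternative. Counts were summed per library and class, and a log2 fold of high over low cells was taken after adding 5 CPM, for 15986 genes with at least 10 UMIs in every library. Because the same counts ranked the cells, that contrast has no test. Gene spans were lengths only, from GENCODE M21, and 99.8% of genes used had one.

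Regions were compared by edgeR 4.0.16 (quasi-likelihood test, TMM factors, Benjamini-Hochberg adjustment) in R 4.3.3, with DESeq2 1.42.0 as an alternative, and the fits were tested on simulated data. The main region fit had no animal block. Both segments came from the same mouse, which pairs the replicate numbers, and deviations of same-numbered sums correlated by 0.254 in high and 0.193 in low cells. Confidence intervals cover counting error only. Python 3.11.15 with scipy 1.17.1 and scikit-learn 1.9.0 did the rest.

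Members and gene lists were chosen with earlier results of these data known. Genes named were the 4 rule genes, members of the lists, and those past 2-fold in all libraries (the 15 highest, the 10 lowest and 5 gene models), with at least 20 CPM. For the region and interaction tests they were the 5 highest and 5 lowest called genes by the same level, with 1 direction in both animals, and for the rank groups the 5 genes nearest in pattern. A gene of these lists and 1 named by the rule are not reported here.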

Additional observations from a re-analysis of the deposited data

Results flagged for a closer look

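For 10 genes the difference between high and low cells differed between ileum and jejunum by a test of the interaction itself (edgeR's quasi-likelihood test, 8 sums, Benjamini-Hochberg adjustment over 16002 genes). Depth and the size of the contrast between the classes also differed by region and cannot be told apart from it. Lypd8 (-1.52, adjusted p = 0.00019), Btnl6 (1.58, adjusted p = 0.000307) and Cd36 (1.96, adjusted p = 0.0135) are described above.

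Usp29, an imprinted gene, had the highest value, 2.45 ± 0.38 (adjusted p = 0.00019). It rested on ileum replicate 2, where 1 cell held 76.6% of the 64 UMIs of the high cells, and with a mitochondrial share under 10% it was 0.44 (adjusted p = 0.837). Mmp15, a membrane-bound metalloproteinase gene, had 1.49 ± 0.28 (adjusted p = 0.0054), with folds of 0.26 and 1.39 for ileum replicates 1 and 2 and of -0.57 and -0.38 for the jejunal ones. Without ileum replicate 2 it was 0.82 (adjusted p = 1), and Usp29 was 1.10. Sprr2a2, a small proline-rich protein gene with near-identical copies, had 1.44 ± 0.30 (adjusted p = 0.0107), and 1 cell held 45.9% of its UMIs among high cells of jejunum replicate 2. Without ileum replicate 2 it was 0.86 (adjusted p = 1).

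S100g, the calcium carrier calbindin-D9k, had -1.16 ± 0.23 (adjusted p = 0.00845), at 152 and 64.0 CPM in ileal high cells against 261 and 143 CPM in low cells, with jejunal folds of 0.01 and 0.41. Trap1, a mitochondrial chaperone gene, had -1.16 ± 0.28 (adjusted p = 0.0451). Rpl29, a ribosomal protein gene with pseudogene copies, had -1.16 ± 0.26 (adjusted p = 0.0201), and Rph3al, a gene of vesicle release, -1.18 ± 0.27 (adjusted p = 0.0312). Without jejunum replicate 2, Rpl29 was at -0.64 (adjusted p = 0.298) and Rph3al at -0.71 (adjusted p = 0.285). All 10 lost their call when the library block was left out, and 9 of the 10, Btnl6 excepted, without ileum replicate 2.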

How the results depend on the processing

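Values for high against low cells turned on how cells were chosen. The count of genes past 2-fold was 34, and it was 277 with the top 2% of cells, 0 with the top 10%, 14 against all other cells, 9 with cells ranked after thinning to 2000 UMIs, 1 within quartiles of UMIs per cell, 17 at a mitochondrial share under 10%, 13 without Gm20275 in the score, 20 without Mir99ahg and 104 with 1 CPM added. Leaving out a library gave 36 to 74, on fewer libraries to agree over. With the chosen cells thinned, an alternative added after seeing the data, it was 75. The span difference of 0.45 stayed positive in 21 of 21 alternatives, at 0.63 (top 2%), 0.30 (top 10%), 0.35 (all other cells), 0.59 (thinned), 0.28 (quartiles), 0.74 (1 CPM added), 0.27 (at least 1 UMI) and, added after seeing the data, 0.77 (same cells thinned), 1.08 (20 to under 100 CPM), 1.35 (at least 100 CPM) and 0.58 (protein-coding genes). Of 1836 alternative log2 folds of lists and named genes, 207 moved by more than the spread between libraries and 55 changed sign, in 16 of 102 results, none larger than 0.49 at first.

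The animal block (replicate block) raised the region calls from 418 to 1172 in high and from 1564 to 2613 in low cells. High cells gave 968 calls with no filter, 824 with the top 10% and 297 to 770 without 1 library (770 without jejunum replicate 1). Low cells gave 2767 with DESeq2, 933 with as many cells as the high class and 17 to 1284 without 1 library. The 68 interaction calls became 0 without the library block, that is with no replicate block (725 at an unadjusted p under 0.05), 149 with no filter, 121 with RLE factors, 12 with as many low as high cells, 32 at a mitochondrial share under 10%, 35 with the top 10% and 19 to 439 without 1 library. The 44 of 68 more positive in the ileum were 64.7%, but 37.1% without jejunum replicate 1. The 4-gene share stayed higher in the ileum in 7 of 7 alternatives, by 0.0132 to 0.0320 points without 1 library. The mitochondrial and ribosomal protein differences kept their sign in 15 of 15 alternatives each (the former at 0.725 after thinning, 0.966 with the top 10% and 0.498 to 3.14 without 1 library), as did all 110 alternative values of the 10 region genes. Of 102 alternative values of the 10 interaction genes, 38 lost the call and 0 changed sign. DESeq2 gave an adjusted p for only 2 of these 10 genes, Sprr2a2 and Lypd8, so the others had no DESeq2 call to keep or lose. The causes were not tested. With 2 libraries per region and 12 to 14 UMIs of the rule genes in a median high cell, single-cell ranks carry large counting error, and 53.4% to 64.6% of high cells were chosen again after thinning.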

Other observations

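Cells outside the limits also held the 4 RNAs. Those with a mitochondrial share of 20% or more, the other limits met, numbered 17 and 50 in ileum replicates 1 and 2 and had a pooled 4-gene share of 0.142% and 0.138%, where 35.3% and 28% of them lay past the limit of their library. For jejunum replicates 1 and 2 there were 291 and 964 such cells, with 0.0545% and 0.0320%, and 6.87% and 3.63% past the limit. Kept cells had pooled shares of 0.0827%, 0.0716%, 0.0701% and 0.0525%. Cells with over 6000 genes had 0.0764%, 0.0589%, 0.0767% and 0.0467%, and at most 0.735% of them lay past the limit.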
